A study of Solanum lycopersicum with 26 samples.

Results

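Endosperm-restricted genes of the mature tomato seed are described here, that is, 78 of the 33976 genes counted. They were chosen by their measured levels in CPM (a gene's count divided by the total count of its library and multiplied by 1000000). A gene entered when its mean over the 12 endosperm libraries was at least 50 CPM and at least 50 times its mean over the 14 embryo libraries. Of 3530 genes with at least 50 CPM in endosperm, 78 met the ratio. The difference between the tissues is thus what selected the members, and it is given only as a description, without a test. The heat and light contrasts within the endosperm were not used in the choice.

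All seeds came from Solanum lycopersicum cv. Moneymaker fruits that were picked at the breaker stage, the onset of colouring, at 63 days after flowering. The fruits then ripened off the plant for 7 days under 1 of 4 conditions, and seeds were taken at 70 days after flowering. Days and nights were at 23 °C and 20 °C in standard temperature (ST) and at 32 °C and 26 °C in high temperature (HT), with high light (HL) at 300 µE or dim light (DL) at 25 µE for 16 h a day. ST_HL was the standard, and ST_DL, HT_HL and HT_DL carried 1 or both stresses, with 3 endosperm libraries in each condition and 3 or 4 embryo libraries. The seeds were dissected by hand, the sources do not say whether the seed coat stayed with the endosperm, and the RNA kit was run with a different sample setting for each tissue. Each replicate pooled seeds from more than 1 fruit, and p-values measure the spread between these pools.

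The endosperm of tomato is a living tissue that surrounds the embryo in the mature seed. It stores oil, protein and thick mannan-rich cell walls, and the part that covers the root tip has to weaken before the radicle can emerge. During late maturation the endosperm still makes RNA, and part of that RNA is kept in the dry seed.

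Total counts lay between 20718484 and 21174419 in the endosperm libraries, so 1 read was worth close to 0.0476 CPM. All 78 members were counted in all 12 endosperm libraries and passed the filter on low counts. No source used here annotates endosperm markers by gene ID, so the tissue label could not be checked against markers. The 27 genes of the mirrored rule (at least 50 CPM in embryo and at least 50 times the endosperm mean) summed to 16.1 to 129 CPM in the endosperm libraries, against 3057 to 8966 CPM in the embryo libraries, a difference that their choice fixed. Their sum was 73.9 to 129 CPM in ST_HL, 63.3 to 78 CPM in ST_DL, 16.1 to 21.5 CPM in HT_HL and 28.7 to 99.2 CPM in HT_DL. HT_HL endosperm thus held the fewest counts of these genes, with no overlap with the other conditions. The part this had in the contrasts was not tested.

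Together the members took 4.89 to 6.72% of all counts in an endosperm library and 0.0284 to 0.0857% in an embryo library. In ST_HL their summed level was 53854, 54803 and 57703 CPM, and in ST_DL it was 55493, 63600 and 62225 CPM. In HT_HL it was 55028, 58102 and 48880 CPM, and in HT_DL it was 67219, 58074 and 55595 CPM. The 4 conditions overlapped in this sum of CPM. With TMM normalization over all 26 libraries the sums were 60429, 73134 and 70681 in ST_DL. All 3 then lay above the ST_HL sums of 58767, 58893 and 60381, the lowest only narrowly, and above the HT_HL sums of at most 60116. HT_DL, at 68752, 60931 and 58801, still overlapped. These sums were not tested. In bulk tissue, fewer cells of a type and less RNA per cell cannot be told apart.

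Member means over the endosperm libraries ran from 50.8 to 12489 CPM, with a median of 140 CPM. Levels of 1000 CPM or more were reached by 10 members, 41 lay between 100 and 1000 CPM, and 27 were under 100 CPM. In the embryo the mean per member was 0.0993 to 191 CPM with a median of 1.05 CPM, and 67 members were counted in all 14 embryo libraries. The endosperm mean exceeded the embryo mean by 51.9 to 635 times, with a median of 175 times. In each embryo library the median member stood at 0.323 to 1.03% of its endosperm mean. Across members, log2 levels in single embryo libraries followed the endosperm mean with a Pearson r of 0.68 to 0.92. Members high in endosperm thus tended to be the ones most counted in embryo. The ratio used in the choice capped each member's embryo mean at a fixed share of its endosperm mean. This cap rises with the endosperm mean, so the choice built in part of the correlation and kept the median shares low. How large that part was was not tested. How much of these embryo counts came from endosperm left on the embryos was not tested.

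**Figure D1:**
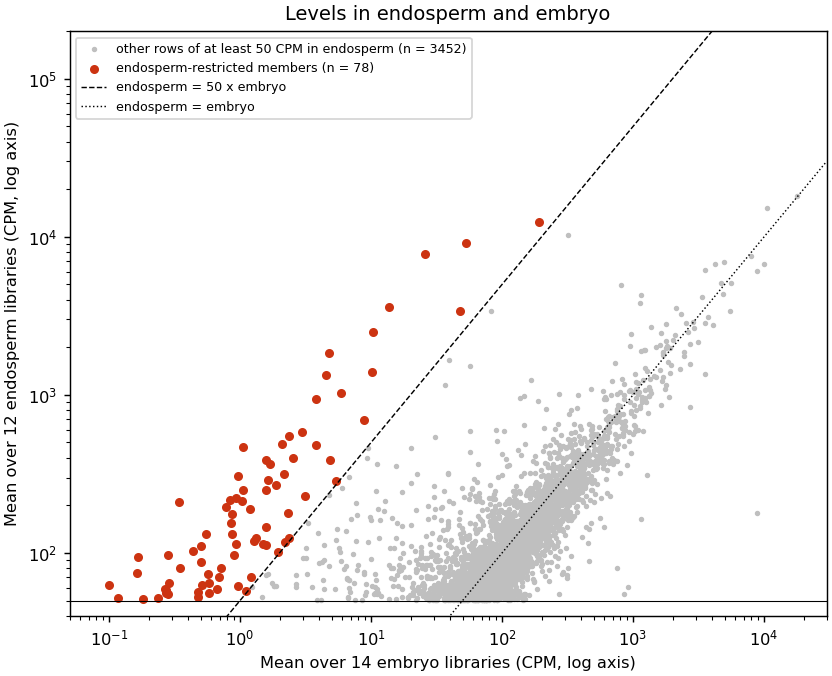
Mean CPM over the 12 endosperm libraries (vertical log axis) against mean CPM over the 14 embryo libraries (horizontal log axis) for the 3530 genes of at least 50 CPM in endosperm. The 78 members (red) lie left of the dashed line at 50 times the embryo level, with means from 50.8 to 12489 CPM.

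At the edge of the level threshold, Solyc09g015380.1.1, Solyc06g052147.1.1 and Solyc12g008920.3.1 were just inside with 50.8, 51.8 and 51.9 CPM. Solyc06g051140.4.1, Solyc10g050457.1.1 and Solyc05g043247.1.1 were just outside with 47.7, 47.5 and 46.9 CPM. At the edge of the ratio, Solyc09g090470.3.1, Solyc02g065220.4.1 and Solyc09g011870.3.1 were inside with ratios of 51.9, 52.0 and 52.8. The first genes outside were Solyc09g074530.3.1, Solyc08g080640.2.1 and Solyc09g008200.4.1 with ratios of 49.6, 48.9 and 48.8. No gap separated the members from the next genes on either measure.

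The most abundant member by CPM was Solyc09g090970.4.1, which has no annotation in the sources used here. It stood at 11385, 10762 and 11915 CPM in ST_HL and at 13185, 17398 and 17875 CPM in ST_DL. In HT_HL it stood at 9515, 10528 and 7582 CPM, and in HT_DL at 16432, 12623 and 10663 CPM. Its ST_DL libraries all lay above its ST_HL libraries and its HT_HL libraries all lay below them, while HT_DL overlapped with ST_HL. None of these differences passed the test, the nearest being ST_DL against ST_HL with a log2 fold change of 0.58 ± 0.17 (SE) and a Benjamini-Hochberg adjusted p = 0.0838 in edgeR's quasi-likelihood test.

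Solyc11g010530.2.1 followed with a mean of 9151 CPM and Solyc08g068150.4.1 with 7743 CPM. These 3 members took 43.4 to 56.3% of the members' counts in an endosperm library. CPM is not divided by transcript length, so this order is one of reads and not of molecules. Further down came Solyc09g089820.2.1 (3584 CPM), Solyc01g090360.3.1 (3418 CPM), Solyc01g098770.1.1 (2505 CPM) and Solyc04g051730.1.1 (1836 CPM). Solyc05g013920.4.1 (1396 CPM), Solyc05g053350.3.1 (1341 CPM) and Solyc01g081590.4.1 (1024 CPM) completed the 10. Over the 12 libraries, the members whose log2 levels ran closest to those of Solyc09g090970.4.1 were Solyc09g089820.2.1 (Pearson r = 0.946), Solyc02g087365.1.1 (0.916) and Solyc05g053350.3.1 (0.878).

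None of the 10 most abundant members was called in any contrast, a call being an adjusted p below 0.05 with an absolute log2 fold change above 1. Among the 3530 genes of at least 50 CPM, 0.170 to 2.92% were called per direction in a contrast or the interaction. With shares this small, 0 of 10 does not set these members apart from other genes. Smaller differences did pass the adjusted p alone. Solyc04g051730.1.1 had 2038, 2038 and 2226 CPM in ST_HL, 1390, 1426 and 1334 CPM in HT_HL, 1555, 1644 and 1588 CPM in HT_DL and 2100, 2328 and 2367 CPM in ST_DL. Both hot conditions lay below both standard-temperature conditions in every library. The log2 fold change was -0.58 ± 0.08 (SE) for HT_HL against ST_HL (edgeR's quasi-likelihood test with Benjamini-Hochberg adjustment, adjusted p = 0.000754) and -0.62 ± 0.08 for HT_DL against ST_DL (adjusted p = 0.000871).

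Solyc01g098770.1.1 had 2800, 2401 and 2769 CPM in ST_HL and 1487, 1584 and 1858 CPM in HT_HL, with no overlap. It stood at 3009, 3296 and 3111 CPM in ST_DL and at 2064, 2781 and 2902 CPM in HT_DL. The HT_HL libraries were thus the lowest of the 12, with a log2 fold change against ST_HL of -0.66 ± 0.15 (SE; edgeR's quasi-likelihood test with Benjamini-Hochberg adjustment, adjusted p = 0.00848). The flattest profile belonged to Solyc01g090360.3.1, whose highest condition mean was 1.07 times the lowest, followed by Solyc04g064770.1.1 and Solyc08g068150.4.1. For Solyc01g090360.3.1 the condition means were 3321 ± 432, 3311 ± 363, 3543 ± 308 and 3495 ± 1021 CPM (SD, n = 3) in ST_HL, ST_DL, HT_HL and HT_DL.

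The ratio of the highest to the lowest condition mean had a median of 1.73 over the members and 1.31 over the 3530 genes of at least 50 CPM. The coefficient of variation between replicates of a condition had a median of 13.6% over the members and 7.34% over those genes. HT_DL was the highest condition for 35 members (44.9%, against 23.7% of the 3530 genes) and ST_DL the lowest for 34 (43.6% against 37.6%). Another 7 members were highest in ST_HL and 3 lowest there. The condition mean fell below 50 CPM for 17 members in ST_DL, 13 in HT_HL, 1 in ST_HL and 0 in HT_DL, in 24 members overall. Those 24 met the level threshold only through other conditions and had to differ between conditions. The counts of calls below are therefore also given for the 54 members at or above 50 CPM in every condition. The shares by highest and lowest condition include the 24 and were not taken over the 54 alone, so part of them was built in.

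**Figure D2:**
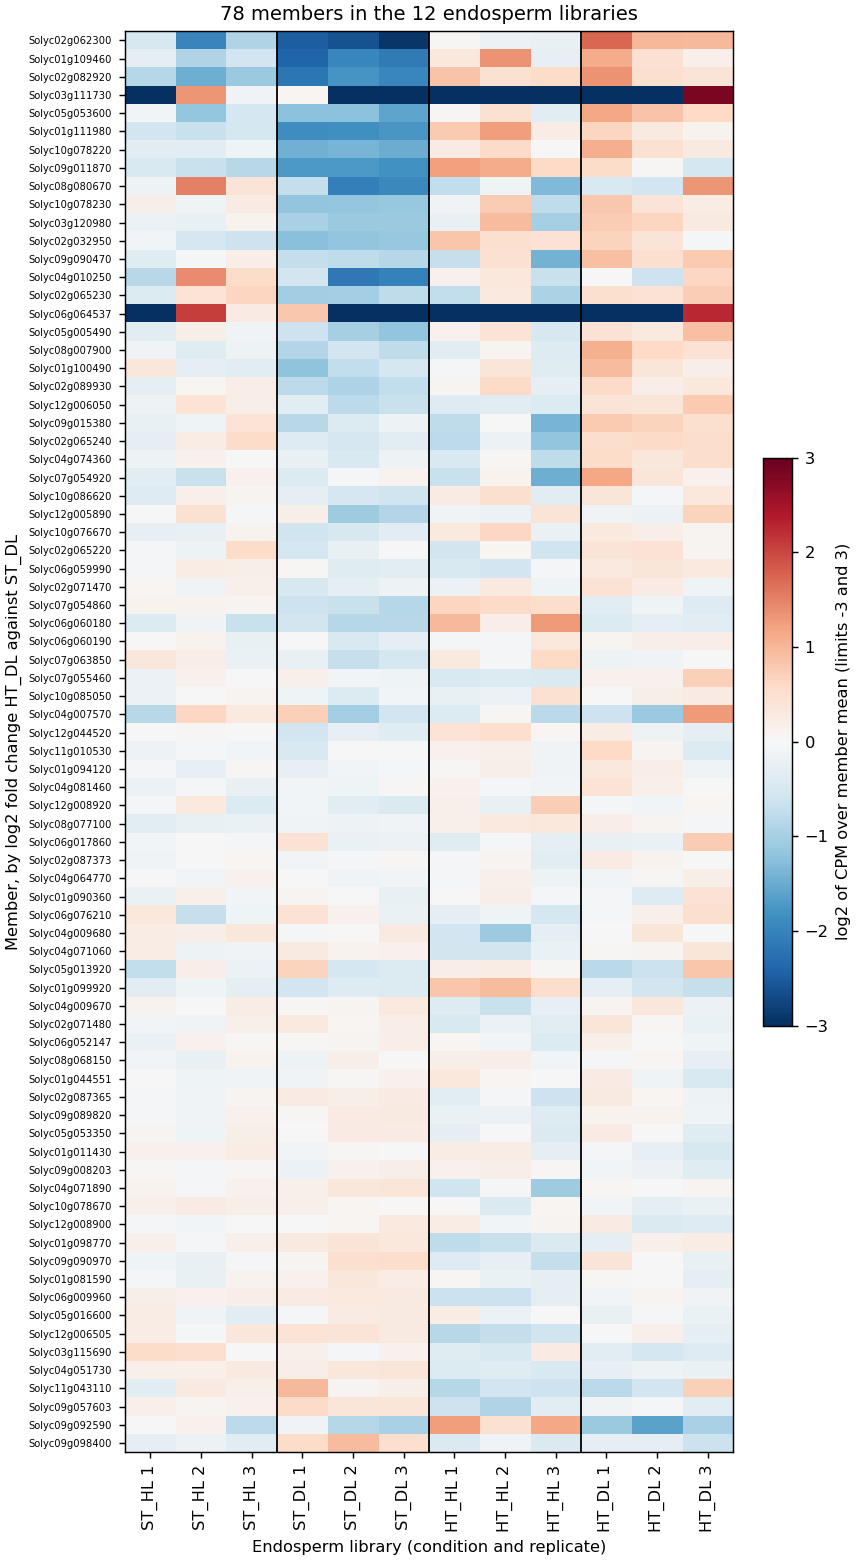
The 78 members (lines, ordered by log2 fold change of HT_DL against ST_DL) in the 12 endosperm libraries (columns, 3 per condition), coloured by log2 of CPM over the member's mean with colour limits at -3 and 3. The upper lines are low in all 3 ST_DL libraries, and single lines such as Solyc06g064537.1.1 and Solyc03g111730.3.1 change between replicates of a condition.

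A few members differed between replicates by more than any condition did. Solyc06g064537.1.1, chosen for description after its values were seen, had 2.28, 269 and 75.9 CPM in ST_HL, 113, 0.0476 and 0.143 CPM in ST_DL, 0.213, 0.0951 and 0.143 CPM in HT_HL and 0.573, 0.0480 and 308 CPM in HT_DL. It was above 50 CPM in 4 libraries and under 1 CPM in 7. Solyc03g111730.3.1 was high in the same 4 libraries, ST_HL replicates 2 and 3, ST_DL replicate 1 and HT_DL replicate 3. It had 7.23, 386 and 145 CPM in ST_HL, 162, 10.5 and 11.8 CPM in ST_DL, 11.2, 10.0 and 11.3 CPM in HT_HL and 9.32, 6.04 and 1093 CPM in HT_DL. All 3 HT_HL libraries were low for both genes. In the embryo, Solyc06g064537.1.1 reached at most 1.69 CPM. Across expressed genes, some of these 4 libraries also ran together in their deviations from the condition mean. The Pearson r was 0.82 between ST_DL replicate 1 and HT_DL replicate 3. ST_HL replicate 2 had r of 0.70 and 0.77 with these 2 libraries, and ST_HL replicate 3 had 0.07 and 0.08. What the libraries share was not tested.

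Over the 12 libraries the log2 levels of Solyc03g111730.3.1 and Solyc04g007570.2.1 followed Solyc06g064537.1.1 with a Pearson r of 0.94 and 0.87, and no other member passed 0.8. Solyc08g080670.1.1 came next with 0.77. These 4 had the largest spread within conditions, with a median coefficient of variation of 55.4 to 146%. Neither Solyc06g064537.1.1 nor Solyc03g111730.3.1 was called, although the fitted log2 fold change of Solyc06g064537.1.1 was -9.60 ± 3.72 (SE) for HT_HL against ST_HL (edgeR's quasi-likelihood test with Benjamini-Hochberg adjustment, adjusted p = 0.0815). Because the conditions held 2, 1, 0 and 1 of these 4 libraries, the counts of calls below are also given without them, a choice made after the data were seen that leaves ST_HL with 1 library.

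**Figure D3:**
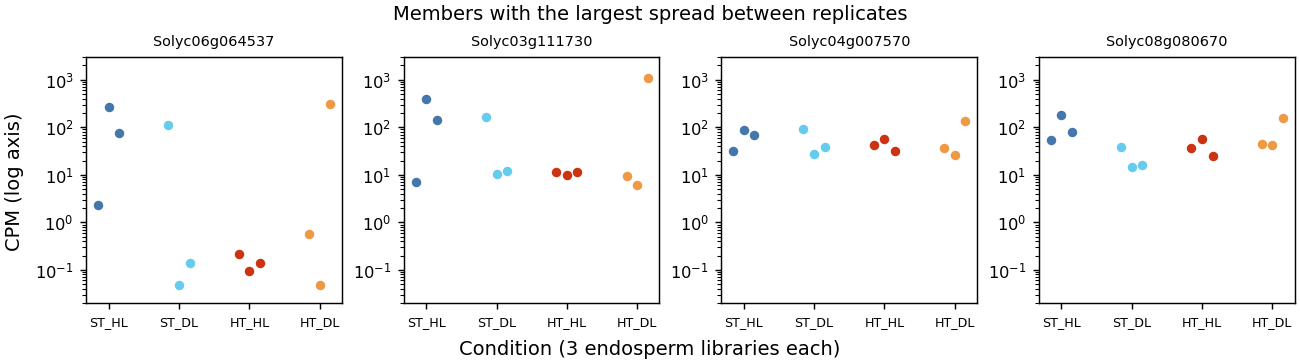
CPM on a common log axis for the 4 members with the largest spread between replicates, 1 point per endosperm library (3 per condition). For Solyc06g064537.1.1 the values run from 0.0476 to 308 CPM, and ST_HL, ST_DL and HT_DL each hold both high and low libraries.

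Heat in high light (HT_HL against ST_HL) raised 7 of the 78 members (8.97%) and lowered 0. Over all 19185 genes tested 3.17% were called higher and 2.67% lower, and of the 3530 genes of at least 50 CPM 1.67% were higher and 0.368% lower. Without the fold threshold, 11 members passed the adjusted p as higher and 10 as lower, against 2561 and 2003 of the 19185 genes tested. Of the 78 estimates, 43 were negative. With edgeR, 36 members had an unadjusted p below 0.05 in this contrast, a count not taken over all genes. DESeq2 called 7 members higher and 1 lower, and over all genes 611 higher and 654 lower. The median log2 fold change was -0.04 over the members, against -0.0021 over all genes. Of the 54 members above 50 CPM in every condition, 4 were called higher. Without the 4 libraries named above, 4 members were called higher and 1 lower.

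Solyc02g082920.4.1 showed the largest rise in this contrast. It had 62.2, 41.3 and 52.1 CPM in ST_HL and 203, 154 and 166 CPM in HT_HL, so that every hot library lay above every standard one. Its log2 fold change was 1.77 ± 0.25 (SE; edgeR's quasi-likelihood test with Benjamini-Hochberg adjustment, adjusted p = 0.00092).

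Solyc09g011870.3.1 is placed by the study's annotation in phenylalanine and tyrosine biosynthesis as an arogenate dehydrogenase, the enzyme that forms tyrosine from arogenate. It rose from 85.1, 73.6 and 65.9 CPM in ST_HL to 273, 253 and 175 CPM in HT_HL, without overlap. The log2 fold change was 1.65 ± 0.22 (SE; adjusted p = 0.000815, edgeR's quasi-likelihood test with Benjamini-Hochberg adjustment). Solyc01g111980.3.1, without annotation here, rose by 1.42 ± 0.19 on the log2 scale, from 193, 181 and 201 CPM to 501, 691 and 340 CPM.

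Solyc06g060180.3.1, Solyc09g092590.2.1 and Solyc01g099920.4.1 were high in HT_HL and not in HT_DL. Solyc06g060180.3.1 had 292, 361 and 245 CPM in ST_HL, 770, 447 and 943 CPM in HT_HL and 292, 321 and 307 CPM in HT_DL. Solyc01g099920.4.1 had 252, 290 and 258 CPM in ST_HL, 569, 609 and 455 CPM in HT_HL and 265, 218 and 198 CPM in HT_DL. For both, the HT_HL libraries were the 3 highest of the 12. The call of Solyc06g060180.3.1 (log2 fold change 1.30 ± 0.25 SE; edgeR's quasi-likelihood test with Benjamini-Hochberg adjustment, adjusted p = 0.00404) was lost without the 4 libraries, with an adjusted p of 0.0796. The remaining call in this contrast was Solyc01g109460.3.1, with a log2 fold change of 1.20.

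Dim light at standard temperature (ST_DL against ST_HL) lowered 6 members (7.69%) and raised 1 (1.28%). Among all genes tested 0.865% were lower and 0.276% higher, and among the 3530 genes of at least 50 CPM 0.765% and 0.170%. The members' median log2 fold change was -0.14, against -0.01 over all genes, and of the 54 members above 50 CPM throughout 3 were lower and 1 higher. Over all genes tested, 53 were called higher and 166 lower. Without ST_DL replicate 1, 2 or 3 these counts were 35 and 95, 28 and 55 or 30 and 60. The number of members called was likewise sensitive to single libraries. From 7, it dropped to 3, 1 or 3 when ST_DL replicate 1, 2 or 3 was left out, to 4 or 2 when ST_HL replicate 2 or 3 was, and to 1 without the 4 libraries together.

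Solyc02g062300.3.1 fell most in ST_DL, from 80.4, 28.4 and 59.8 CPM in ST_HL to 20.4, 18.4 and 14.8 CPM. The log2 fold change was -1.58 ± 0.32 (SE; edgeR's quasi-likelihood test with Benjamini-Hochberg adjustment, adjusted p = 0.0201), and the call was lost without any 1 of the ST_DL libraries or without ST_HL replicate 1 or 3. Solyc01g111980.3.1 fell from 193, 181 and 201 CPM to 79.2, 80.2 and 86.2 CPM, with a log2 fold change of -1.16 ± 0.19 (adjusted p = 0.00896), a call lost without ST_DL replicate 2 and without the 4 libraries together. The groups did not overlap for either gene. Solyc01g109460.3.1, Solyc10g078230.3.1, Solyc10g078220.2.1 and Solyc09g011870.3.1 were the other members that fell, with log2 fold changes of -1.52, -1.20, -1.12 and -1.05. The calls of Solyc01g109460.3.1 and Solyc10g078230.3.1 were each lost in 10 of the 20 alternatives run, including the removal of any 1 ST_HL or ST_DL library.

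Solyc09g098400.3.1 was the one member that rose in ST_DL. It had 408, 434 and 386 CPM in ST_HL, 717, 955 and 702 CPM in ST_DL, 365, 454 and 364 CPM in HT_HL and 402, 406 and 313 CPM in HT_DL. The 3 ST_DL libraries stood above the other 9. Its log2 fold change against ST_HL was 1.02 ± 0.14 (SE; edgeR's quasi-likelihood test with Benjamini-Hochberg adjustment, adjusted p = 0.00457), close to the threshold of 1. The call was lost when ST_DL replicate 2 or ST_HL replicate 3 was left out, without the 4 libraries together, or with library totals alone.

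Both stresses together (HT_DL against ST_HL) raised 3 members (3.85%) and lowered 0. Among all genes 0.354% were higher and 0.245% lower, and among the 3530 genes of at least 50 CPM 0.227% and 0.340%. The members' median was 0.10 against 0.01 over all genes. None of the 54 members above 50 CPM in every condition was among the 3. With edgeR, 24 of the 78 members had an unadjusted p below 0.05, a count not taken over all genes. DESeq2 also called 3 members higher and 0 lower, and over all genes 146 higher and 111 lower. The count was 1 without ST_HL replicate 2, 6 without HT_DL replicate 3, 0 without the 4 libraries together and 0 when edgeR was fitted to these 6 libraries alone, where 28 members had an unadjusted p below 0.05.

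The 3 members were Solyc02g062300.3.1, Solyc02g082920.4.1 and Solyc05g053600.3.1. Solyc02g062300.3.1 had 80.4, 28.4 and 59.8 CPM in ST_HL and 370, 225 and 222 CPM in HT_DL, a log2 fold change of 2.24 ± 0.32 (SE; edgeR's quasi-likelihood test with Benjamini-Hochberg adjustment, adjusted p = 0.0159). Solyc02g082920.4.1 had 288, 157 and 147 CPM in HT_DL, a log2 fold change of 1.88 ± 0.25 (adjusted p = 0.0127). Solyc05g053600.3.1 went from 118, 55.3 and 86.4 CPM to 277, 224 and 189 CPM, with a log2 fold change of 1.36 ± 0.25 (adjusted p = 0.0357). The conditions did not overlap for any of them. The call of Solyc05g053600.3.1 was lost in 10 of 20 alternatives, including the removal of any 1 of 8 libraries, and that of Solyc02g082920.4.1 without ST_HL replicate 2.

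The contrast with the most calls among the members was heat in dim light (HT_DL against ST_DL), in which 16 members rose (20.5%) and 1 fell (1.28%). Over all genes tested 2.96% were higher and 1.05% lower, and of the 3530 genes of at least 50 CPM 1.50% and 0.708%. The members' median log2 fold change was 0.19, with quartiles of -0.26 and 1.05, against a median of 0.01 over all genes. Of the 54 members above 50 CPM throughout, 6 were higher and 1 lower, so 10 of the 16 had an ST_DL mean under 50 CPM. Leaving out any 1 library gave 14 to 18 calls, and leaving out the 4 libraries gave 15 higher and 1 lower. With library totals alone as the scale, the median of all genes moved to 0.12 and that of the members to 0.30, with 18 members higher and 1 lower.

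In all 16 members that rose, ST_DL was the lowest of the 4 condition means, as it was in 549 (96.7%) of the 568 genes called higher in this contrast. HT_DL was the highest mean in 12 of the 16 members and HT_HL in 4, and HT_DL was highest in 254 (44.7%) of the 568 genes. Both orders are favoured by the call itself and are given without a test. Their endosperm means lay between 52.5 and 482 CPM, so all stood below the 10 most abundant members. Solyc02g062300.3.1 rose most, from 20.4, 18.4 and 14.8 CPM in ST_DL to 370, 225 and 222 CPM in HT_DL, with a log2 fold change of 3.82 ± 0.34 (SE; edgeR's quasi-likelihood test with Benjamini-Hochberg adjustment, adjusted p = 0.000227). No alternative ended this call, with log2 fold changes of 3.54 to 4.02.

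Solyc01g109460.3.1 rose from 33.9, 45.9 and 41.2 CPM to 388, 245 and 198 CPM, a log2 fold change of 2.66 ± 0.36 (SE). Solyc02g082920.4.1 rose from 25.0, 33.1 and 29.1 CPM to 288, 157 and 147 CPM, a change of 2.65 ± 0.26. Solyc05g053600.3.1 rose from 53.0, 53.0 and 41.3 CPM to 277, 224 and 189 CPM, a change of 2.11 ± 0.26. For all 3 genes the conditions lay far apart, with adjusted p of 0.0014, 0.000227 and 0.000757 in edgeR's quasi-likelihood test with Benjamini-Hochberg adjustment, and no alternative ended a call. The arogenate dehydrogenase Solyc09g011870.3.1 rose from 35.1, 35.1 and 33.2 CPM to 171, 120 and 81.2 CPM (log2 fold change 1.73). The other 11 had log2 fold changes of 1.07 to 2.07. Solyc09g098400.3.1 was the one member that fell, by 1.20 on the log2 scale, from 717, 955 and 702 CPM to 402, 406 and 313 CPM.

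**Figure D4:**
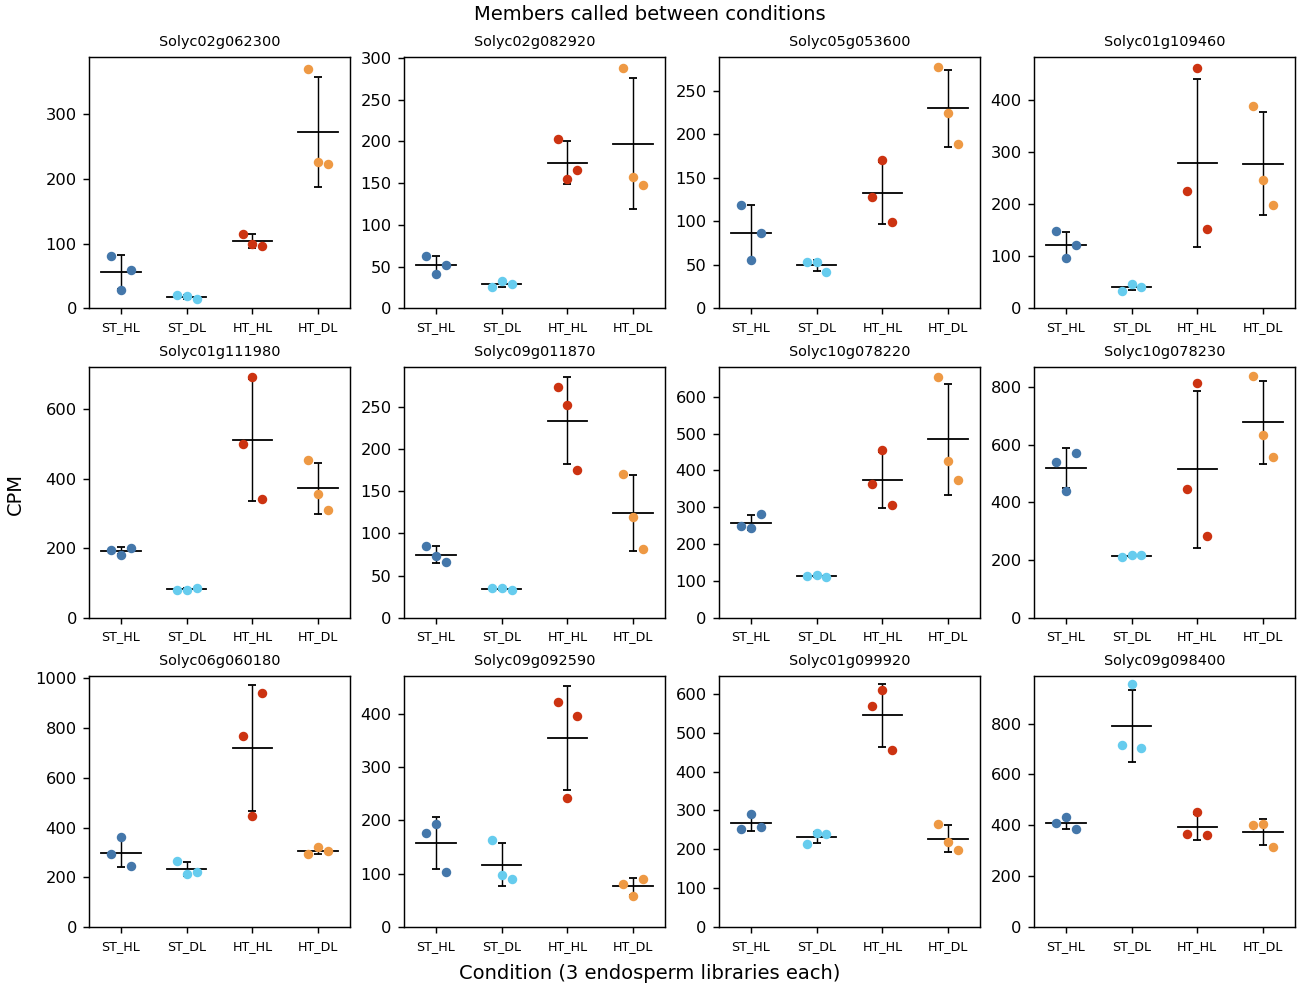
CPM of 12 called members in the 12 endosperm libraries, 1 point per library, with horizontal bars for the condition mean and error bars for 1 SD (n = 3). The first 8 members are lowest in ST_DL, Solyc06g060180.3.1, Solyc09g092590.2.1 and Solyc01g099920.4.1 are highest in HT_HL, and Solyc09g098400.3.1 is highest in ST_DL, at 702 to 955 CPM.

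Dim light under heat (HT_DL against HT_HL) raised 5 members (6.41%) and lowered 3 (3.85%). Among all genes 2.68% were higher and 3.25% lower, and among the 3530 genes of at least 50 CPM 0.652% and 2.92%. The members' median was 0.14 against 0.02 over all genes. Over all genes, 514 were higher and 624 lower, and these counts were 243 and 411 without HT_HL replicate 1. Without HT_HL replicate 3 they were 520 and 600. Of the 54 members above 50 CPM throughout, 0 rose and 3 fell. Without HT_HL replicate 1 or without HT_HL replicate 3 the count dropped from 8 to 5, and without the 4 libraries together it was 7.

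The 3 members that fell were among the 7 raised by heat in high light. Solyc09g092590.2.1 had 422, 242 and 397 CPM in HT_HL and 81.4, 57.9 and 89.3 CPM in HT_DL, against 176, 194 and 103 CPM in ST_HL and 163, 97.8 and 89.3 CPM in ST_DL. Its HT_HL libraries were the highest of the 12. The log2 fold change of HT_DL against HT_HL was -2.29 ± 0.32 (SE; edgeR's quasi-likelihood test with Benjamini-Hochberg adjustment, adjusted p = 0.00093). Solyc01g099920.4.1 fell by 1.32 and Solyc06g060180.3.1 by 1.31 on the log2 scale, and no alternative ended these 3 calls.

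Those that rose were Solyc02g062300.3.1 (log2 fold change 1.33), Solyc09g015380.1.1 (1.21, lost without HT_HL replicate 1 or 3), Solyc02g065240.3.1 (1.15, lost without HT_HL replicate 3), Solyc07g054920.2.1 (1.13) and Solyc09g090470.3.1 (1.04). Solyc02g062300.3.1 had 115, 99.8 and 96.5 CPM in HT_HL and 370, 225 and 222 CPM in HT_DL, without overlap, and its call stood in every alternative. Solyc07g054920.2.1 had 44.1, 75.3 and 25.5 CPM in HT_HL and 158, 91.1 and 76.6 CPM in HT_DL. These libraries nearly met, and its call was lost in 8 of 20 alternatives.

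Whether dim light acted differently at the 2 temperatures, or equally heat in the 2 light regimes, was tested with the interaction (HT_DL minus HT_HL) minus (ST_DL minus ST_HL). It was positive for 10 members (12.8%) and negative for 3 (3.85%), against 1.03% and 1.03% of all genes tested. Among the 3530 genes of at least 50 CPM the shares were 0.793% and 1.50%. Of the 54 members above 50 CPM throughout, 5 were positive and 3 negative, and the members' median was 0.18 against 0.01 over all genes. With library totals alone these medians were 0.30 and 0.14. Over all genes, 198 positive and 197 negative interactions were called. Without ST_DL replicate 1, 2 or 3 these counts were 141 and 138, 26 and 42 or 26 and 38. Without HT_HL replicate 1 or 2 they were 33 and 48 or 316 and 346. The count of 13 also moved with single libraries, to 7, 4 or 4 when ST_DL replicate 1, 2 or 3 was left out, to 7 when ST_HL replicate 3 or HT_DL replicate 2 was, to 5 or 20 when HT_HL replicate 1 or 2 was, and to 3 without the 4 libraries together.

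Solyc02g062300.3.1 had the largest called interaction, 2.91 ± 0.44 (SE) on the log2 scale (edgeR's quasi-likelihood test with Benjamini-Hochberg adjustment, adjusted p = 0.011). Its levels fell in dim light at standard temperature and rose in dim light under heat, and the call stood in every alternative. Solyc02g065230.3.1 followed with 2.02 ± 0.43 (adjusted p = 0.0264), a call lost in 8 of 19 alternatives. It had 43.8, 77.3 and 92.0 CPM in ST_HL, 28.4, 28.8 and 34.7 CPM in ST_DL, 35.3, 71.5 and 30.2 CPM in HT_HL and 81.8, 79.2 and 97.9 CPM in HT_DL. Its neighbour Solyc02g065240.3.1 had an interaction of 1.70 ± 0.31 (adjusted p = 0.0176), a call lost in 4 of 19 alternatives.

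The negative interactions belonged to Solyc09g092590.2.1 (-1.92 ± 0.44 SE), Solyc01g099920.4.1 (-1.19 ± 0.17) and Solyc09g098400.3.1 (-1.16 ± 0.20). Their adjusted p were 0.0341, 0.00903 and 0.0148 in edgeR's quasi-likelihood test with Benjamini-Hochberg adjustment. The first 2 peaked in HT_HL and the last in ST_DL. The call of Solyc09g092590.2.1 was lost in 10 of 19 alternatives, that of Solyc09g098400.3.1 in 2 and that of Solyc01g099920.4.1 only without the 4 libraries together.

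Contrasts that share no library were set side by side over the 78 members. Heat in high light and heat in dim light had log2 fold changes of the same sign in 48 members and of opposite sign in 30, with a Pearson r of 0.0031 across members (0.09 across all genes tested). Dim light at standard and at high temperature had the same sign in 40 members and opposite signs in 38, with r = -0.32 (-0.10 across all genes). Both r rested on Solyc06g064537.1.1 and Solyc03g111730.3.1, the members that changed most between replicates. Over the other 76 members, a set chosen after the values were seen, r was 0.41 for heat and -0.08 for light. Genes are not independent replicates, and these values are descriptions.

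**Figure D5:**
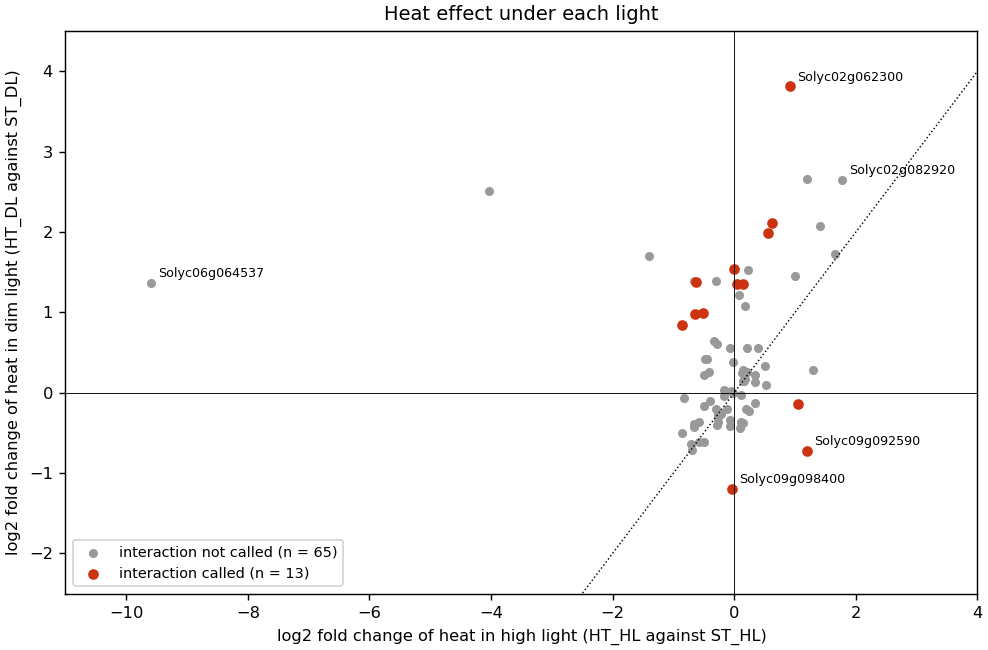
Log2 fold change of heat in high light (horizontal) and in dim light (vertical) for the 78 members, with the 13 members of a called interaction in red and a dotted line of equal effects. Solyc02g062300.3.1 lies at 3.82 in dim light, and Solyc09g092590.2.1 and Solyc09g098400.3.1 lie below the line.

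In all, 24 members were called in at least 1 of the 5 contrasts or the interaction and 54 in none. How many of all genes tested were called in at least 1 contrast was not counted. All 42 calls in the 5 contrasts were between conditions that did not overlap in any library, which a call with 3 libraries per condition favours. The 5 contrasts share libraries, so calls of 1 gene in several of them are not independent. Solyc02g062300.3.1 was called in 4 contrasts, and Solyc01g109460.3.1, Solyc01g111980.3.1, Solyc02g082920.4.1 and Solyc09g011870.3.1 in 3 each.

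Only 4 members carry a functional label in the annotation used here, which was read in part. Besides the arogenate dehydrogenase, Solyc04g010250.3.1 is a monoacylglycerol lipase, an enzyme of the last step of storage oil breakdown. It had 33.2, 158 and 86.0 CPM in ST_HL, 39.4, 13.3 and 14.4 CPM in ST_DL, 64.5, 73.6 and 37.2 CPM in HT_HL and 59.4, 38.0 and 90.6 CPM in HT_DL. Its replicates were widely spread, and its log2 fold change of -1.99 ± 0.57 (SE) in ST_DL against ST_HL did not pass (edgeR's quasi-likelihood test with Benjamini-Hochberg adjustment, adjusted p = 0.0821).

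Solyc01g011430.4.1 carries terms for diacylglycerol O-acyltransferase, which completes the synthesis of storage oil, and for wax synthesis. It had 424, 428 and 452 CPM in ST_HL, 370, 397 and 382 CPM in ST_DL, 449, 455 and 320 CPM in HT_HL and 370, 330 and 280 CPM in HT_DL. HT_DL lay below ST_HL without overlap, but the log2 fold change of -0.46 ± 0.11 (SE) had an adjusted p of 0.0965 in edgeR's quasi-likelihood test with Benjamini-Hochberg adjustment. Solyc01g044551.1.1, with terms for oxidoreductase activity and metal ion binding, had condition means of 117 ± 4.52, 126 ± 10.7, 136 ± 15.9 and 116 ± 28.0 CPM (SD, n = 3) in ST_HL, ST_DL, HT_HL and HT_DL, and was called in no contrast.

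The pathway of the arogenate dehydrogenase, phenylalanine and tyrosine biosynthesis, holds 10 genes in that annotation, all of them tested. It was looked at because this called member falls in it, and the member is among the genes counted. In HT_HL against ST_HL 5 of the 10 rose and 0 fell, with a median log2 fold change of 0.62. Over all genes tested 3.17% rose and 2.67% fell. Besides Solyc09g011870.3.1 the 5 held the arogenate dehydrogenases Solyc06g050630.3.1 (log2 fold change 1.85) and Solyc07g007590.1.1 (1.15). The others were the arogenate dehydratases Solyc06g074530.1.1 (2.44) and Solyc11g066890.1.1 (1.38), which act on the branch to phenylalanine. In HT_DL against ST_DL 3 rose, against 2.96% of all genes tested, namely Solyc09g011870.3.1, Solyc06g074530.1.1 (2.89) and Solyc11g066890.1.1 (2.04). Whether the pathway as a whole responded was not tested. Of the 3 arogenate dehydrogenases only Solyc09g011870.3.1 was a member. The mean level in endosperm was 117 CPM for Solyc09g011870.3.1, 11.1 CPM for Solyc07g007590.1.1 and 1.00 CPM for Solyc06g050630.3.1, while in embryo it was 2.21, 10.4 and 0.195 CPM.

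Among the 17 genes annotated as triacylglycerol lipases, 10 were tested. In HT_DL against ST_DL 1 rose and 0 fell, where 2.96% of all genes tested rose. In HT_DL against HT_HL 0 rose and 1 fell, where 3.25% of all genes tested fell. The latter was the other monoacylglycerol lipase, Solyc09g075140.3.1, with a log2 fold change of -1.41 and a mean of 43.6 CPM in endosperm against 5.32 CPM in embryo. These 2 lists were taken because a member falls in them. Of the 78 members 2.56% fell in an annotated metabolic class, against 7.11% of the 3530 genes of at least 50 CPM.

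Gene IDs of this annotation number the genes along each chromosome. Chromosome 2 held 11 members, chromosomes 1 and 4 held 10 each and chromosome 9 held 9, while 377, 494, 297 and 259 of the 3530 genes of at least 50 CPM lay on chromosomes 2, 1, 4 and 9. Directly adjacent IDs formed 5 runs with 11 members. The longest was Solyc02g065220.4.1, Solyc02g065230.3.1 and Solyc02g065240.3.1, whose log2 levels over the 12 libraries ran together with r = 0.79 to 0.89. All 3 had their highest mean in HT_DL, at 125, 86.3 and 94.4 CPM.

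Solyc10g078220.2.1 and Solyc10g078230.3.1 were also neighbours (r = 0.90). Solyc10g078220.2.1 had 249, 243 and 281 CPM in ST_HL, 114, 116 and 109 CPM in ST_DL, 363, 457 and 305 CPM in HT_HL and 655, 425 and 373 CPM in HT_DL. Both genes fell in ST_DL and rose in HT_DL against ST_DL. Solyc04g009670.1.1 and Solyc04g009680.2.1 had r = 0.95, while Solyc02g071470.4.1 and Solyc02g071480.3.1 had r = 0.15. Reads that matched several transcripts were divided among them, which leaves counts that are not whole. This held for 100% of the values of both genes on chromosome 10 and for 100, 53.8 and 57.7% in the longest run. It held for 84.6 and 100% in Solyc02g071470.4.1 and Solyc02g071480.3.1, and for 0% in Solyc04g009670.1.1 and Solyc04g009680.2.1. Which transcripts shared reads was not examined, so the division between neighbours with such counts is uncertain. In 28 members over 50% of the values were not whole, and in 43 members all values were whole. The upper quartile of the share not whole was 84.6% over the members. It was 3.85% over the 3530 genes of at least 50 CPM.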

How the data were processed

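RNA-seq was carried out on 12 endosperm and 14 embryo libraries. The authors quantified reads with Salmon 0.14.1 (genome build SL4.0, annotation ITAG4.0) and deposited expected counts (estimated reads per transcript, not normalized), of which 10.5% are not whole. Salmon divides reads among similar transcripts. All columns belonged to a library (0 without one). No member matched the RefSeq gene table, so no sequence is shown and genes appear by ID.

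CPM used column sums. For tests, counts were rounded and fitted in edgeR 4.0.16 under R 4.3.3 on the 12 endosperm libraries, with 1 coefficient per condition, TMM normalization, filterByExpr (minimum count 10, minimum total 15) and the quasi-likelihood F-test, adjusted by Benjamini-Hochberg over 19185 genes. The common biological coefficient of variation was 0.219, and this spread, more than counting error, limits precision. Log2 correlations with the endosperm mean and with Solyc06g064537.1.1 used library CPM plus 0.05. Those with Solyc09g090970.4.1 and between neighbours used CPM with nothing added. The steps were tested on simulated data.

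The members, the gene lists and the alternatives were chosen with earlier results of these data known. Named were the 10 most abundant members, per contrast the 4 called members with the largest change in each direction whose conditions did not overlap, the 3 largest interactions in each direction, annotated members, the 3 flattest, the longest ID run, genes nearest the thresholds and the 3 most like the most abundant member. Alternatives were RLE, library totals alone, TMM without the members, DESeq2 1.42.0, no filter, no fold threshold, a replicate block, 2 conditions alone, leaving out each library, other ratio and level thresholds and TMM over 26 libraries. Another alternative took the embryo mean without 4 embryo libraries. Leaving out 4 endosperm libraries together was added after the data were seen.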

Additional observations from a re-analysis of the deposited data

Results flagged for a closer look

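For 6 named members dim light acted unequally at the standard and the high temperature, by the interaction term of edgeR's quasi-likelihood test with Benjamini-Hochberg adjustment over all genes tested. It was positive for Solyc02g062300.3.1 (2.91 on the log2 scale), Solyc02g065230.3.1 (2.02) and Solyc02g065240.3.1 (1.70), which all stood highest in HT_DL. It was negative for Solyc09g092590.2.1 (-1.92) and Solyc01g099920.4.1 (-1.19), highest in HT_HL, and for Solyc09g098400.3.1 (-1.16), highest in ST_DL. Leaving out the 4 libraries that were high in Solyc06g064537.1.1 ended all of these calls except that of Solyc02g062300.3.1. A search for single embryo libraries far from the others covered 22 sets of 4 values and found 0, where chance gives about 1 in 20.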

How the results depend on the processing

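No named result changed direction under any alternative. Of 30 named member contrasts, 13 kept their call in every alternative, 8 lost it in 1 to 3 and 9 in more than 3. Without the fold threshold, calls over all 19185 genes tested were 2561 higher and 2003 lower for HT_HL against ST_HL. They were 327 and 396 for ST_DL against ST_HL and 96 and 103 for HT_DL against ST_HL. For HT_DL against HT_HL they were 2059 and 2672, for HT_DL against ST_DL 1221 and 1191 and for the interaction 338 and 649. In these fits 21 members were called for HT_HL against ST_HL, 11 for ST_DL against ST_HL and 8 for HT_DL against ST_HL. The counts of members were 25 for HT_DL against HT_HL, 29 for HT_DL against ST_DL and 15 for the interaction. Fitted to the 2 conditions alone, HT_DL against ST_HL gave 0. Leaving out the 4 libraries together gave 1 for ST_DL against ST_HL, 0 for HT_DL against ST_HL and 3 for the interaction. Replicate numbers showed no sign of pairing the libraries, with correlations of -0.81 to 0.60 between same-numbered libraries. Libraries of different number had correlations of -0.79 to 0.82. These correlations are of deviations from means of 3 libraries, so they cannot exclude pairing. With a replicate block the interaction had 8 calls and the other counts were 3 to 17, within 1.5 times those reported. Leaving out 1 library gave 5 to 10 calls for HT_HL against ST_HL, 1 to 8 for ST_DL against ST_HL, 1 to 6 for HT_DL against ST_HL, 5 to 10 for HT_DL against HT_HL, 14 to 18 for HT_DL against ST_DL and 4 to 20 for the interaction. A ratio of at least 20 gave 119 members and one of at least 100 gave 58. In embryo, ST_HL replicates 2 and 3 and HT_DL replicates 2 and 3 summed to 7984 to 8966 CPM of the mirrored genes. The other embryo libraries had at most 4134 CPM. With these 4 left out of the embryo mean, the rule gave 84 members, of which 77 were among the 78. Scaled by TMM over 26 libraries, the mean summed CPM of the members was 339 in HT_HL embryo, 68081 in ST_DL endosperm and 59347 in ST_HL endosperm. With column sums these means were 392, 60440 and 55454 CPM. The ST_DL sums overlapped with those of ST_HL and HT_HL with column sums but not with TMM. The cause of these changes was not tested. With 3 libraries per condition, the counts for ST_DL against ST_HL, HT_DL against ST_HL and the interaction are therefore the least certain.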
